A study of Mus musculus with 9 samples.

Results

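The let-7 family is described here through the 10 array probes named let7a-1, let7b, let7c, let7d, let7e, let7f-1, let7f-2, let7g, let7i and miR98, taken by name from 206 probes. The arrays had 2 colours, and each carried the small RNA of 1 cell population against that of wild-type V6.5 cells, a mouse embryonic stem (ES) cell line. Own RNA came from homozygous DGCR8 knockout ES cells of line 1 and of line 2 (2 arrays each), from ES cells heterozygous for the DGCR8 knockout (3 arrays), or from irradiated mouse embryonic fibroblasts, the feeder layer on which the ES cells were grown (2 arrays). The knockout, heterozygous and wild-type cells were all ES cells that had been grown on feeders and passaged off them before RNA was taken. Each knockout line is 1 line with duplicate hybridisations, so knockout cells have 2 independent values. In every group replicate 2 had its own RNA in channel 1, and the other arrays had it in channel 2.

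A microRNA is cut in 2 steps, first from a primary transcript by Drosha with its RNA-binding partner DGCR8, then from the resulting hairpin by Dicer. The let-7 microRNAs share the seed, the stretch near the 5′ end that pairs with target messengers, and are known for repressing growth regulators such as Hmga2 and Lin28a. In ES cells mature let-7 is kept low by the Lin28 proteins, which bind let-7 precursors, and it accumulates in differentiated cells such as fibroblasts.

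The mature sequences show how closely the probes' targets resemble each other, which bears on whether an array can tell them apart. They were taken from RefSeq on GRCm38.p6, where all 10 members were matched, and the capitals mark the seed at bases 2 to 8.
let-7a: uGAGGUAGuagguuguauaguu
let-7b: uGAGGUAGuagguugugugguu
let-7c: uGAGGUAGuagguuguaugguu
let-7d: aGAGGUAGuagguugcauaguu
let-7e: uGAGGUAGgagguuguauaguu
let-7f: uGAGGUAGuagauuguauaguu
let-7g: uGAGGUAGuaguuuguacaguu
let-7i: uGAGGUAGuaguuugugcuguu
miR-98: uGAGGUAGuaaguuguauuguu

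The seed is the same in all of them. The 10 members have 9 distinct sequences, because let7f-1 and let7f-2 stand for hairpins that give the same mature let-7f. Counting from 1 at the 5′ end and with let-7a first, let-7e differs by U9G, let-7f by G12A and let-7c by A19G. let-7b differs by A17G and A19G, let-7d by U1A and U16C, let-7g by G12U and U18C, and miR-98 by G11A and A19U. let-7i stands furthest from let-7a, with G12U, A17G, U18C and A19U. Of the 45 pairs of members 1 has no difference and 5 differ at 1 base, while let-7d and let-7i differ at 6. How far the probes distinguish such sequences is not given in the sources used here, so a value of one member may hold signal of another.

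The genes lie in several clusters. On GRCm38.p6 let-7a-1 (chr13:48538239-48538260), let-7f-1 (chr13:48537889-48537910) and let-7d (chr13:48536078-48536099) lie together on the minus strand of chromosome 13. let-7b (chr15:85707325-85707346) and let-7c-2 (chr15:85706616-85706637) are neighbours on the plus strand within the long noncoding RNA gene Lncppara, and let-7c-1 (chr16:77599672-77599693, plus strand) lies beside miR-99a. let-7e (chr17:17830366-17830387, plus strand) lies beside miR-99b and miR-125a within the span of Spaca6. let-7f-2 (chrX:151912353-151912374) and miR-98 (chrX:151913229-151913250) are plus-strand neighbours within the span of Huwe1. let-7g (chr9:106178846-106178867, plus strand) lies within the span of Wdr82, and let-7i (chr10:122985698-122985719, minus strand) has no other microRNA gene within 10 kb.

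The deposited values were read as log10 ratios on a scale set by added control RNAs. That base shows in the values of 1 knockout array, replicate 2 of line 1, and was assumed for all other arrays. The ratios are given here on the log2 scale, with wild-type RNA as the denominator. The series' text makes this direction likely without stating it. The arrays held values for 84 to 133 of the 206 probes, and 155 of 195 probes matched to a mouse microRNA had a value on at least 1 array. The median of the mouse probes lay between -6.16 and -4.91 on the 4 knockout arrays, between -0.19 and 0.09 on the heterozygous arrays, and at 1.34 and 1.16 on the feeder arrays. Spot intensities were not analysed here. A ratio near 0 can therefore be an equal level or a pair of dim spots, and these cannot be told apart.

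How many let-7 probes had a value varied between arrays. Of the 10 probes 8 and 10 had a value on feeder replicates 1 and 2, against 2, 9 and 4 on heterozygous replicates 1, 2 and 3. Line 1 gave values for 4 and 6 of the probes and line 2 for 5 and 6. No knockout array gave a value for let7f-1, let7i or miR98, and miR98 had its only value on feeder replicate 2. let7e was the member with a value on all 9 arrays. The let7f-1 and let7f-2 probes, for the same mature sequence, had values on 3 and 7 arrays.

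The first comparison asked how much of each microRNA was left without DGCR8. In knockout cells the measured let-7 microRNAs lay near their wild-type ratio or a few fold below it, while most microRNAs of the array were far lower. let-7a, whose probe is named for the chromosome 13 hairpin, had ratios of -0.03 and -0.33 on the line 1 arrays and 0.44 and -0.84 on the line 2 arrays. let-7b had -0.05 and -0.59 in line 1 and 0.28 and -0.74 in line 2. Both scattered around the wild-type level with no side held by all 4 arrays.

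let-7e, from the cluster with miR-99b and miR-125a, had -0.24 and -0.58 in line 1 and -0.70 and -1.61 in line 2. It was thus below wild type on 4 of 4 knockout arrays. let-7f, read by the let7f-2 probe, had 0.32 and -0.17 in line 1 and a single value of 0.89 in line 2. let-7c had no value in line 1 and 0.02 and -1.63 in line 2, which differ by more than its separation from wild type.

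let-7d and let-7g had values only on replicate 2 of each line, where own RNA lay in channel 1. let-7d had -0.62 in line 1 and -1.74 in line 2, and let-7g had -1.80 and -2.90. let-7g was the lowest member on both of these arrays and let-7d the next lowest. Their order against the other members is thus known in 1 dye orientation only.

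Of the 10 members 4 had enough values to enter the fit over 87 microRNAs (at least 2 heterozygous arrays, both knockout lines and 1 feeder array). let-7e fell by 0.78 on the log2 scale in knockout cells (SE 0.28, 95% interval -1.47 to -0.10, limma, adjusted p = 0.034). That makes 1 of 4 tested members called lower and 0 of 4 called higher, where 89.7% of all tested microRNAs were called lower and 2.3% higher. let-7e was not called within either dye orientation alone, nor without replicate 2 of line 1 (-0.70, limma, adjusted p = 0.0524) or of line 2 (-0.56, limma, adjusted p = 0.11).

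The other tested members did not pass. let-7a averaged -0.19 ± 0.02 (SD, n = 2 lines), with an interval of -0.69 to 0.31 and an adjusted p of 0.378 (limma). let-7b averaged -0.27 ± 0.07, with an interval of -0.83 to 0.28 and an adjusted p of 0.26 (limma). let-7f averaged 0.48 ± 0.58, with an interval of -0.22 to 1.18 and an adjusted p of 0.144 (limma). Its line 2 value came from 1 array with own RNA in channel 2, and with a dye term in the fit let-7f was at 0.20. All 3 intervals exclude a fall of the size of the median over all 87 microRNAs, which was -5.98, while the median of the 4 members was -0.23. On this scale the ratios rest on the control RNAs. As an alternative, each array was centred on its median over the 58 mouse probes with a value on every array. With centred arrays let-7a, let-7b, let-7e and let-7f came out higher in knockout cells than in wild type, by 6.29, 6.20, 5.69 and 6.88. The median over all tested microRNAs moved to 0.50.

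Without the requirement for values in every group, 113 microRNAs could be tested against wild type, 88.5% of them called lower and 1.77% higher, and let-7d and let-7g entered with 1 array per line. let-7g averaged -2.35 ± 0.78 (SD, n = 2 lines), 5.09-fold below wild type, and fell with an adjusted p of 0.00626 (limma). let-7d averaged -1.18 ± 0.79 with an adjusted p of 0.0502, and the adjusted p of let-7e became 0.0502 as well (limma). On that wider set 1 of 6 measured members, let-7g, was called lower.

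The place of the members among all mouse probes of an array does not depend on the scaling of that array. Counted from the highest ratio down, the measured members took places 3 to 8 of 91 on replicate 1 of line 1 and places 6 to 16 of 126 on its replicate 2. In line 2 they took places 4 to 11 of 110 and 8 to 16 of 105. let-7g held the lowest of these places, 16, on both replicate 2 arrays. In all, the 21 knockout values of 7 members stood among the 16 highest ratios of their arrays in the likely direction of the ratios, and would stand among the 16 lowest if that direction were turned.

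**Figure D1:**
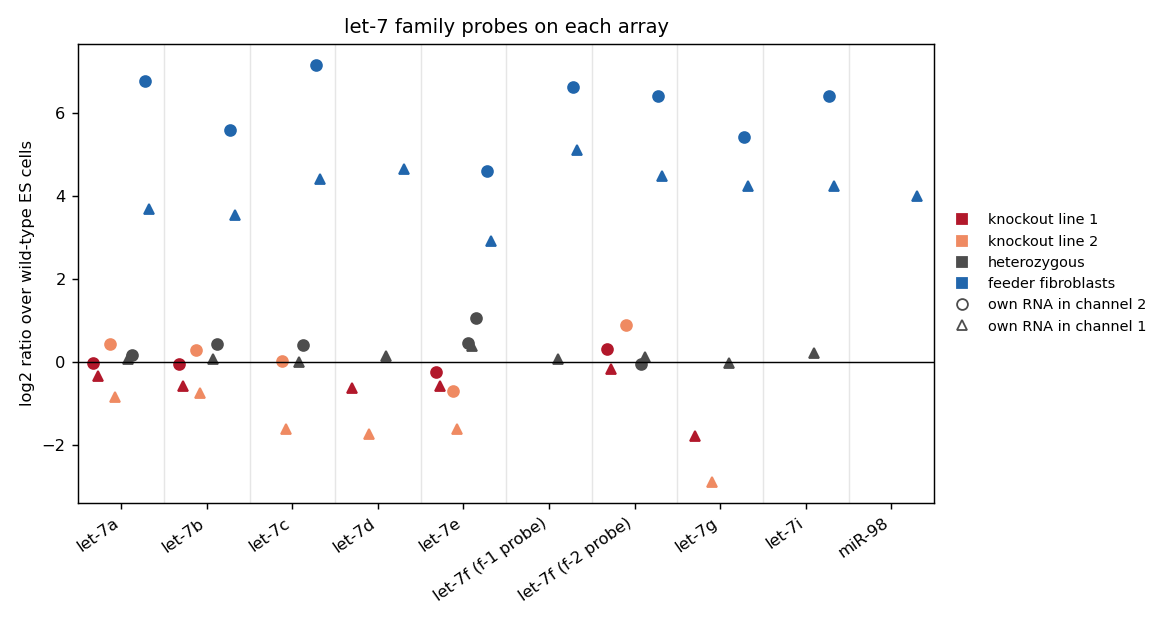
Log2 ratio over wild type (vertical axis) of each let-7 probe on every array with a value, for knockout line 1, knockout line 2, heterozygous and feeder arrays. Triangles have own RNA in channel 1 and circles in channel 2. Knockout values lie between -2.90 and 0.89, heterozygous values between -0.05 and 1.06 and feeder values between 2.91 and 7.16.

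The 2 knockout lines were compared on single arrays, which covers the spread of hybridisation only. Line 2 over line 1 was -0.02 for let-7a (interval -2.06 to 2.02), 0.09 for let-7b (-1.52 to 1.70), -0.74 for let-7e (-2.13 to 0.64) and 0.82 for let-7f (-1.10 to 2.74). None of the 4 members was called, and 0 of the 87 tested microRNAs was (limma), with 13 at an unadjusted p under 0.05. Differences of a few fold between the lines lie inside these intervals, so they were not detectable with at most 2 arrays each. let-7f had 1 array in line 2, with own RNA in channel 2, and its difference was 0.44 with a dye term in the fit.

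Heterozygous cells, which keep 1 working copy of the gene, had let-7 ratios near 0. let-7a had 0.08 and 0.16 on replicates 2 and 3, let-7b had 0.07 and 0.44, and let-7c had 0.00 and 0.40. let-7f had -0.05 and 0.11 on replicates 1 and 2, read by the let7f-2 probe. The values of these 4 members lay between -0.05 and 0.44.

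let-7e stood a little higher, at 0.46, 0.38 and 1.06 on heterozygous replicates 1, 2 and 3, with a mean of 0.63 ± 0.37 (SD, n = 3). It was above wild type on 3 of 3 arrays, yet its unadjusted p of 0.033 became 0.575 after adjustment (limma). let-7d, let-7g, let-7i and the let7f-1 probe had values on replicate 2 alone, between -0.03 and 0.21. None of the 4 tested members was called, nor was any of the 87 microRNAs (0% called, 7 at an unadjusted p under 0.05, limma).

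Knockout against heterozygous cells gave let-7e again. All 4 knockout values of let-7e, from -1.61 to -0.24, lay below all 3 heterozygous values, from 0.38 to 1.06. The difference was -1.42 (SE 0.36, interval -2.30 to -0.53, limma, adjusted p = 0.00903). let-7a, let-7b and let-7f differed by -0.31, -0.53 and 0.45 and did not pass (limma, adjusted p = 0.326, 0.147 and 0.308). That is 1 of 4 members called lower, where 90.8% of the 87 microRNAs were. On replicate 2 arrays alone the let-7e difference was -1.48 and was not called (limma, adjusted p = 0.224), and with centred arrays it turned to 5.01. On the wider set of 104 microRNAs, with 90.4% called lower and 1.92% higher, let-7g stood at -2.31 against a single heterozygous array (limma, adjusted p = 0.0245), and the same difference was not called on channel 1 arrays alone (limma, adjusted p = 0.0532).

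Feeder fibroblasts were measured to learn which knockout signals could come from feeder cells left among the ES cells. let-7 was far higher in feeders than in wild-type ES cells, for every member with a value. let-7a had 6.77 and 3.68 on feeder replicates 1 and 2, let-7c had 7.16 and 4.41, and let-7f had 6.41 and 4.48 by the let7f-2 probe and 6.63 and 5.10 by the let7f-1 probe. let-7c had the highest ratio of all 92 mouse probes on replicate 1. let-7e was the lowest member on both feeder arrays, at 4.59 and 2.91, and let-7b came next lowest on replicate 2, at 3.54, with 5.60 on replicate 1.

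let-7g and let-7i, encoded outside the clusters, had 5.42 and 4.24, and 6.41 and 4.23. let-7d and miR-98 had values on replicate 2 alone, of 4.65 and 4.01. The 18 feeder values of the 10 members thus lay between 2.91 and 7.16, and none overlapped a knockout or heterozygous value of any member. How many other microRNAs separate in this way was not counted.

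All 4 tested members rose in feeders, where 36.8% of the 87 tested microRNAs were called higher and 36.8% lower. let-7a averaged 5.23 ± 2.19 (SD, n = 2 arrays), 37.5-fold over wild type, let-7f 5.44 ± 1.36 (43.5-fold), let-7b 4.57 ± 1.46 (23.8-fold) and let-7e 3.75 ± 1.18 (13.5-fold), with adjusted p between 6.57e-05 and 0.000327 (limma). The members' median was 4.90 and that of all 87 microRNAs 0.15. Nothing says that the feeder arrays were separate cultures, and their mean entered the fit as 1 value, with the spread taken from the remaining groups.

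Without the requirement for values in every group, 131 microRNAs were tested in feeders, with 55.7% called higher and 26.7% lower. let-7c, let-7d and let-7g then rose as well (limma, adjusted p = 0.000142, 0.000638 and 0.000611), with a single feeder array for let-7d. let-7f by the let7f-1 probe, let-7i and miR-98 had at most 1 array outside the feeders, so their fit held no spread of their own and their feeder values are a description only. let-7c averaged 5.79 ± 1.94, let-7i 5.32 ± 1.54, let-7g 4.83 ± 0.84 and the let7f-1 probe 5.86 ± 1.08. These means differ from each other by less than the SD of let-7c and let-7i. Feeder replicate 1 was above replicate 2 in all 8 members with both values, by 1.18 to 3.09.

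**Figure D2:**
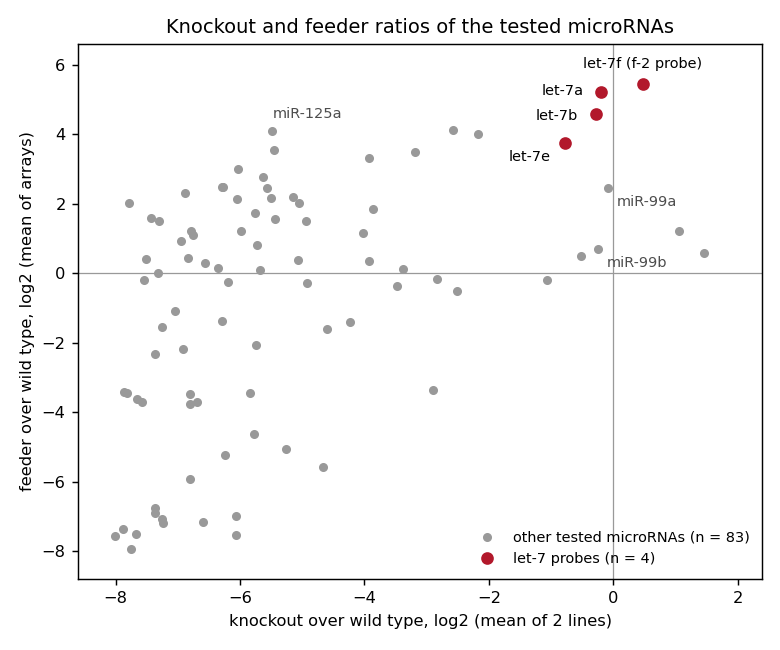
Mean log2 ratio over wild type of the 87 tested microRNAs in knockout cells (horizontal axis, mean of 2 lines) and in feeders (vertical axis, mean of arrays), with the 4 let-7 probes in red and the others in grey. The let-7 probes lie at the right near a knockout ratio of 0 and high on the feeder axis, between 3.75 and 5.44, with miR-99a below them and miR-125a far to the left.

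Set against feeders, knockout cells had a small share of the let-7 signal. let-7a was -5.42 (interval -6.29 to -4.55), which is 2.34% of the feeder level. let-7b was -4.85 (-5.80 to -3.89), let-7e -4.54 (-5.72 to -3.35) and let-7f -4.96 (-6.18 to -3.75). The feeder mean entered as 1 value, so these intervals leave out the spread between the feeder arrays. let-7a was at -6.57 on channel 2 arrays alone and at -4.27 on channel 1 arrays alone, both outside its interval. All 4 tested members were called lower (limma, adjusted p between 5.88e-05 and 0.000274), where 75.9% of the 87 microRNAs were and 1.15% were called higher. Their median of -4.91 is close to that of all 87, -4.92, so the members' distance to feeders was like that of the array as a whole. When each array was centred on its median over the 58 mouse probes with a value on every array, 0 of the 4 members were called lower. The members' differences turned to values between 0.41 and 1.29, while the median of all 87 moved to 0.91. In bulk RNA, fewer cells of a type and less RNA per cell cannot be told apart.

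The percentages were also taken between arrays of the same dye orientation. With own RNA in channel 2, 9 knockout values of 5 members lay between 0.71% and 3.52% of the feeder value, with a median of 1.98%, and the median over the 76 other probes, each averaged over the lines, was 2.58%. With own RNA in channel 1, 12 values of 7 members lay between 0.71% and 8.85%, with a median of 4.16%, and the 100 other probes had a median of 2.11%. let-7g was the lowest member in channel 1 orientation, with a knockout mean at -6.59 relative to the feeder array of that orientation. Against the feeder mean of both orientations it was at -7.18 on the wider set (limma, adjusted p = 0.000282), where 77% of 100 microRNAs were called lower.

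MicroRNAs known from fibroblasts moved with the feeder contrast too. Of 13 on the list, all on the array, 4 were tested. All 4 were lower in knockout cells than in wild type, with a median of -4.32, where 89.7% of the 87 microRNAs were called lower. All 4 were higher in feeders, with a median of 3.52, where 36.8% of the 87 were called higher. Per knockout array 3 to 7 of the 13 had a value, with medians between -5.02 and -2.61, and 12 and 13 had one on the feeder arrays, with medians of 5.34 and 3.68. In knockout over feeder their median was -7.85, or 0.434% of the feeder level, where the 4 let-7 members stood between 2.34% and 4.31%. The part of feeder RNA in the knockout let-7 values was not tested. ES-cell microRNAs, which define the cells being compared, were lower in knockout cells in 8 of 8 tested, with a median of -7.52, beside the same 89.7%. They were lower in feeders in 8 of 8, with a median of -7.28, where 36.8% of the 87 were called lower. Their heterozygous median was -0.20.

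Dye orientation moved with the let-7 values. The ratio with own RNA in channel 1 was below that with own RNA in channel 2 for 4 of 4 members in line 1 (median difference -0.42), 4 of 4 in line 2 (-1.15), 4 of 5 in heterozygous cells (-0.38) and 8 of 8 in feeders (-3.09 to -1.18). Among the other probes 44.8%, 86%, 54.7% and 74.4% were below, with medians of 0.15, -0.71, -0.06 and -0.58. Orientation is the same as replicate number in the knockout and feeder groups, so dye and hybridisation cannot be told apart there. With a dye term in the fit let-7a had an unadjusted p of 0.042 and let-7b of 0.0317 for that term, which became 0.457 and 0.394 after adjustment. None of the 87 microRNAs was called for it (limma, 9 at an unadjusted p under 0.05).

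The sign of the knockout ratios near 0 went with orientation. On channel 1 arrays alone let-7a and let-7b averaged -0.59 and -0.66 in knockout cells over wild type, and on channel 2 arrays alone 0.21 and 0.11. let-7e was below wild type in both orientations, at -1.10 on channel 1 arrays and -0.47 on channel 2 arrays. In feeders let-7a was far above wild type in both, at 3.68 on the channel 1 array and 6.77 on the channel 2 array.

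**Figure D3:**
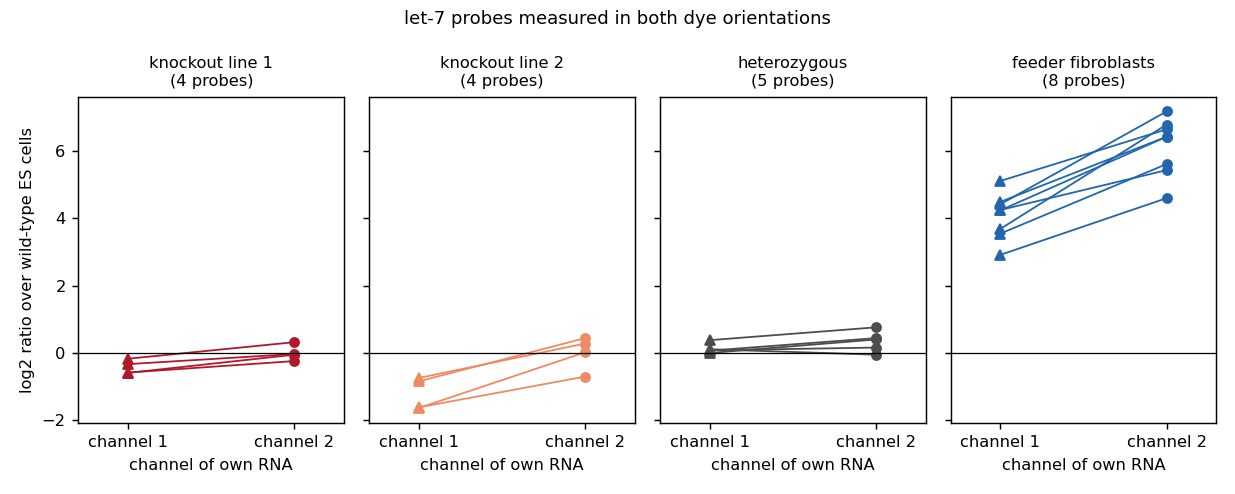
Log2 ratio over wild type (vertical axis) of the let-7 probes measured with own RNA in channel 1 (triangles, left) and in channel 2 (circles, right), with a line joining each probe, in 4 panels for knockout line 1, knockout line 2, heterozygous and feeder arrays (the heterozygous channel 2 value is the mean over its arrays). The lines run upward to channel 2 for all probes except let7f-2 in heterozygous cells, and the steepest are in feeders, where the difference reaches -3.09 for channel 1 minus channel 2.

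Each let-7 gene with array neighbours was also set beside the microRNAs of its own locus. miR-99a lies beside let-7c-1, miR-99b and miR-125a beside let-7e, miR-100 beside let-7a-2, and miR-125b is made from hairpins within 100 kb of let-7a-2 and of let-7c-1. These are not let-7 microRNAs and carry other seeds. In knockout cells 1 of the 4 tested neighbours, miR-125a, was called lower, where 89.7% of all tested microRNAs were. With a dye term in the fit miR-125b was called lower as well, at -3.04 (limma, adjusted p = 0.012).

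The let-7e locus held both patterns. miR-125a had -5.37 and -5.03 in line 1 and -5.18 and -6.35 in line 2, and fell with a mean of -5.48 ± 0.40 (SD, n = 2 lines, limma, adjusted p = 2.87e-05). miR-99b had 0.03 and -0.26 in line 1 and -0.24 and -0.54 in line 2, a mean of -0.25 ± 0.20 that did not pass (limma, adjusted p = 0.232). let-7e, between them at -0.78, was thus nearer to miR-99b. In feeders miR-125a had 4.52 and 3.67, near the low end of the let-7 members, whereas miR-99b had 1.76 and -0.39.

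miR-99a, beside let-7c-1, had 0.01 and -0.01 in line 1 and -0.01 and -0.31 in line 2, with an interval for its mean of -0.60 to 0.44. It rose in feeders, with 3.09 and 1.84 and a mean of 2.46 ± 0.88 (limma, adjusted p = 0.000638). miR-125b had -4.90 and -4.34 in line 2 and 0.26 on 1 array of line 1, a difference of -4.88 for line 2 over line 1 that did not pass (limma, adjusted p = 0.064). miR-100 had no value in knockout cells and 4.26 on feeder replicate 2. All 4 tested neighbours were called lower in knockout cells than in feeders, beside the 75.9% of all tested microRNAs, with miR-125a at -9.58 and miR-99b at -0.94 (limma, adjusted p = 5.88e-05 and 0.0365). miR-99b was not called with a dye term (limma, adjusted p = 0.124). With centred arrays miR-99a and miR-99b turned to 3.28 and 4.88, both called higher, miR-125b was at -0.43 and not called, and miR-125a was still called lower at -3.75.

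**Figure D4:**
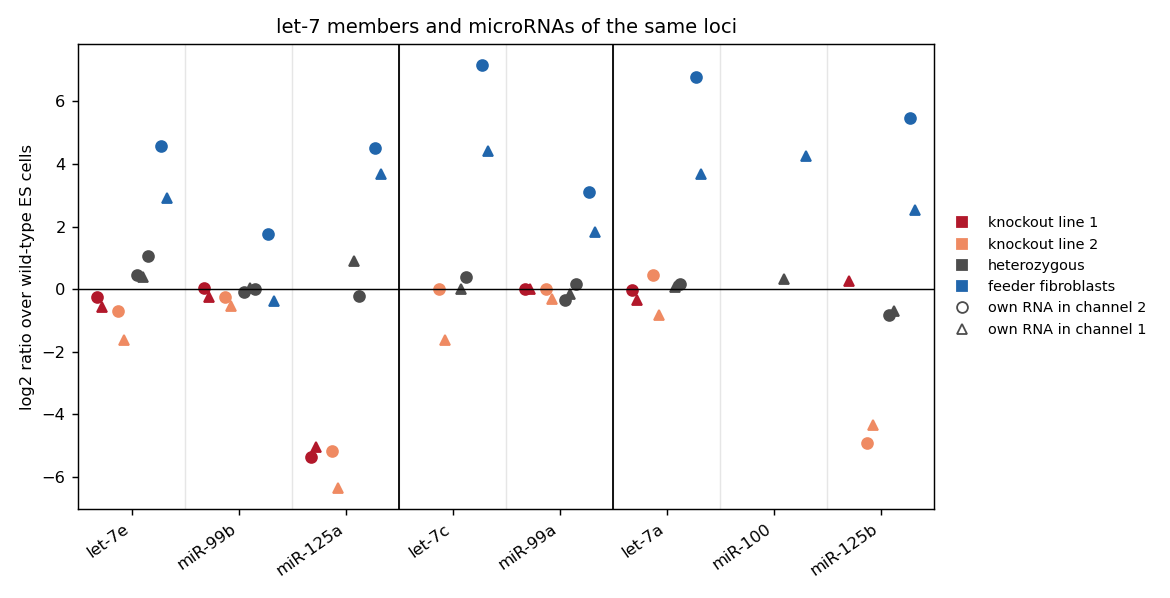
Log2 ratio over wild type on every array (triangles with own RNA in channel 1, circles in channel 2) for let-7 probes and the microRNAs of their loci. At the let-7e locus let-7e and miR-99b lie near 0 in knockout cells while miR-125a lies between -6.35 and -5.03.

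Other tested microRNAs were ranked by the distance of their 4 group means (line 1, line 2, heterozygous and feeder) from the let-7 medians of -0.25, -0.21, 0.19 and 4.90. The nearest was miR-99a at a distance of 2.47 log2 units, followed by miR-29b (3.66), miR-126* (4.12), miR-99b (4.22) and miR-31 (4.42). The distance is a description over 4 group means that rest on 9 arrays.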

How the data were processed

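Mature microRNAs were measured on 9 arrays of 206 probes. Per the labels' protocols, gel-cut small RNA received control RNAs and was labelled with the NCode system. The authors normalised ratios on those controls, per the series' text. The scanner, background correction and spot filter were not named in the labels or the series' text.

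Deposited values, read as log10 ratios, were converted to log2 ratios with a factor of 3.3219. No pseudocount or other scaling was applied. The base shows in the values of 1 knockout array, replicate 2 of line 1, and was assumed for all other arrays, so their folds depend on it. Centring beyond the controls is unknown. The authors' column of knockout line 1 replicate 1 (other unit, as it mixes text errors with ratios) was read the same way. It held 2 error cells, and feeder replicate 1 held 1. Error and null cells were missing values.

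Probe names were matched to RefSeq (GRCm38.p6), with 195 matched and 11 not. The fit (limma 3.58.1 and statmod 1.5.0, run in R 4.3.3) took 6 values of each probe, namely 3 single heterozygous arrays, 1 mean for each knockout line and 1 feeder mean. Tests against 0 do not include the spread of wild-type cells. Probes needed 2 heterozygous arrays, both lines and 1 feeder array, which left 87, with Benjamini-Hochberg adjustment over them and a threshold of 0.05. Lines were compared on single arrays. Heterozygous arrays came from 2 RNA preparations with no map to arrays, so p-values cover only array spread, possibly technical. The steps were tested on simulated data, in which few microRNAs changed and every array had the same noise. Those data do not cover the fall of most microRNAs in knockout cells or the distance between the feeder arrays. The members, marker lists, neighbours and the rule for the 5 nearest microRNAs were chosen with earlier results of these data known. Every member is named. No intensities were analysed, so the number of arrays limits the precision. Same-numbered arrays were not paired. Alternatives left out arrays, centred arrays, changed the filter, blocked on replicate and fitted the dye. Centring subtracted from each array its median over the mouse probes with a value on every array. Fits within a dye orientation and the test of the dye term were chosen after seeing the data.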

Additional observations from a re-analysis of the deposited data

Results flagged for a closer look

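let-7e differed in the same contrast with wild type between knockout and heterozygous ES cells. It was below wild type on 4 of 4 knockout arrays and above it on 3 of 3 heterozygous arrays, and the difference itself was -1.42 (SE 0.36, limma, adjusted p = 0.00903). It was not called on channel 1 arrays alone (-1.48, limma, adjusted p = 0.224) and turned to 5.01 with centred arrays.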

How the results depend on the processing

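Intensities, 2 knockout lines and 2 feeder arrays limit what could be detected, and the cause of the changes below was not tested except where fewer members entered. Centring each array moved the median of all 87 microRNAs in knockout over wild type to 0.50, and reversed the members: let-7a, let-7b and let-7e to 6.29, 6.20 and 5.69 (median 6.25) over wild type, to 6.18, 5.96 and 5.01 (median 6.07) over heterozygous, and, with let-7f, to 0.41, 0.98, 1.29 and 0.78 (median 0.88) over feeder. Members called then were 4 higher and 0 lower in knockout over wild type and over heterozygous, and 0 lower over feeder. Of all 87 microRNAs, 39 were called higher and 17 lower over wild type (limma). Over heterozygous 31 were called higher and 13 lower, and over feeder 40 higher and 23 lower. In knockout over wild type the 1 call (let-7e) became 0 with heterozygous replicates 1 and 2 averaged, with the replicate block and on channel 2 arrays alone, and spanned 0 to 1 when arrays were left out. With no shared filter and on channel 1 arrays alone the count stayed at 1, but the member called was let-7g and let-7e was not called. Over heterozygous it became 0 with the replicate block and on channel 1 arrays alone, and 2 of 6 members with no shared filter, let-7g among them against 1 heterozygous array.

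The 4 feeder calls became 10 of 10 with no shared filter (3 of them with no spread of their own) and 1 of 1 for probes on all 9 arrays, and spanned 1 to 4 when arrays were left out. Over all microRNAs, 55.7% of 131 were called higher in feeders with no shared filter, against 36.8% of 87 in the main fit. The 4 calls of knockout over feeder became 1 of 1 for probes on all 9 arrays and spanned 1 to 4. The low ends, 1 without heterozygous replicate 2 and 2 without replicate 3, had 1 and 2 members left to test. On channel 2 arrays alone let-7a and let-7b were 0.21 and 0.11 (median 0.16) in knockout over wild type, let-7a was 0.05 over heterozygous, and let-7f was -0.05 in heterozygous cells. When arrays were left out, let-7a ranged from -0.51 to 0.13 in knockout over wild type (members' median -0.78 to 0.05) and from -0.63 to 0.01 over heterozygous, positive without line 2 replicate 2. The median of -0.78 was that of let-7e alone, the 1 member tested without heterozygous replicate 2. Line 2 over line 1 ranged from -0.66 to 0.62 for let-7a and from -0.41 to 0.60 for let-7b when arrays were left out, and was -0.40 for let-7b with centred arrays.

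Same-numbered arrays correlated between 0.051 and 0.415 in their deviations, not over 0.1 in every pair, so the numbers were not taken as pairs. With the replicate block let-7e was -0.57 (limma, adjusted p = 0.198) in knockout over wild type and -1.20 (adjusted p = 0.0567) over heterozygous, and let-7f was -0.22 in knockout and -0.39 in heterozygous cells over wild type. Over its 21 alternatives let-7e in knockout over heterozygous ranged from -1.64 to 5.01 and was called lower in 18. The feeder calls of let-7a, let-7b, let-7e and let-7f held in every alternative that tested them.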
